A study of Mus musculus with 10 samples.

Results

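The 9 genes described here encode the Slit ligands (Slit1, Slit2 and Slit3), the Robo receptors (Robo1, Robo2 and Robo3) and the Slit-Robo GTPase-activating proteins, or srGAPs (Srgap1, Srgap2 and Srgap3). They were taken by gene symbol out of 54838 Ensembl genes counted in each library, and all 9 were present. The libraries were made by translating ribosome affinity purification (TRAP), in which ribosomes carrying an EGFP-tagged L10a subunit are immunoprecipitated and the mRNA bound to them is sequenced. All 10 libraries came from C57BL/6 mice of the genotype Drd2-Cre;Eef1a1LSL.eGFPL10a/+, males about 10 weeks old, and 5 were made from dorsal and 5 from ventral hippocampus. Each library was a pool of 5 mice, so the replicate error given below is the spread between pools and not between animals. The paper describes cutting the hippocampi into a dorsal and a ventral part, so both groups appear to draw on the same mice. Which dorsal and ventral libraries share mice is not stated, and the main fit treats all libraries as independent. The tagged ribosomes are switched on by Drd2-Cre, which labels hilar mossy cells of the dentate gyrus and, more sparsely, hippocampal GABAergic interneurons, and the medial end of the ventral pole was trimmed off to remove ventral subiculum. The question put to the data was whether ligands, receptors and srGAPs differed between the dorsal and the ventral mossy cell-enriched population.

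Slits are secreted proteins that bind Robo receptors on growing axons and dendrites and, in most settings, repel them. Robo receptors have no enzyme activity of their own, and srGAPs are among the cytoplasmic proteins they recruit to inactivate small GTPases and so reshape actin and the membrane. In the developing hippocampal formation Slits repel axons, and in the adult brain the same families remain expressed in neurons, where srGAPs act at spines and synapses.

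Slit2 and Slit3 carry a microRNA in their introns that is a further part of this pathway, since miR-218 is known in other tissues to act on Robo transcripts. Its mature sequence is shown because the same arm lies inside 2 of the 3 ligand genes, on the strand of the host gene and outside the exons of its coding transcripts. In Slit2 the 5p arm (Mir218-1) lies at chr5:48223966-48223986 (GRCm38, + strand) and in Slit3 (Mir218-2) at chr11:35616840-35616860 (+ strand), and the 5p sequence was identical at both places, while the 3p arms differed. Capitals mark the seed, bases 2 to 8 counted from the 5′ end.
miR-218-5p (Mir218-1 in Slit2 and Mir218-2 in Slit3): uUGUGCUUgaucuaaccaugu
miR-218-1-3p (Slit2): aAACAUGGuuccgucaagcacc
miR-218-2-3p (Slit3): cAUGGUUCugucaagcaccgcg

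The bases complementary to the 5p seed, AAGCACA on the transcript strand, were searched for in the longest annotated 3′ UTR of each gene. All 3 Robo genes held this match, as did Slit2, Srgap2 and Srgap3, while the 3′ UTRs of Slit1, Slit3 and Srgap1 did not. Slit2 and Robo2 held 2 matches each and the other 4 genes 1 each. Among 20757 protein-coding genes with a 3′ UTR, 13.8% held the match, and the median 3′ UTR was 968 bases long, against 343 bases in Robo3, 365 in Slit3, 1212 in Slit1, 1733 in Robo1, 3492 in Slit2, 3987 in Robo2, 4106 in Srgap2, 4407 in Srgap1 and 4817 in Srgap3. A match is a description of the letters and not evidence of a site in use. The 4 matches in the receptors are printed with the match in capitals.
Robo1 3′ UTR bases 986 to 992, chr16:73045332-73045356 (+ strand): ttttttttggttttaaAAGCACAat
Robo2 3′ UTR bases 461 to 467, chr16:73895357-73895381 (- strand): gattttatttggtgatAAGCACAaa
Robo2 3′ UTR bases 2787 to 2793, chr16:73893031-73893055 (- strand): tagtcacggcagacccAAGCACAgc
Robo3 3′ UTR bases 137 to 143, chr9:37416243-37416267 (- strand): tgcttgtgactcactgAAGCACAct
The rows of Mir218-1 and Mir218-2 held 0 counts in all 10 libraries, which were made for long RNA, so the level of the microRNA was not measured.

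Some measures of the libraries bear on every value. The read pairs counted on genes numbered 11138676 to 20594364 per library, and a floor of 3 counts corresponded to 0.142 to 0.282 CPM (counts per 1000000, with library sizes scaled by the TMM method so that a few abundant genes do not shift the rest). The share of read pairs on no annotated gene was 21.8 to 33.9% in dorsal and 11.6 to 19.3% in ventral libraries, without overlap (two-sided exact permutation test, p = 0.00794, the smallest the design can give). A fit with this share as a covariate can therefore hardly separate its part from that of the group. A call lost in that fit does not decide whether the groups differ. Mossy cell markers were present in all libraries. Drd2 itself was at 28.1 ± 3.96 CPM dorsally and 20.7 ± 4.36 CPM ventrally (SD, n = 5), and Calb2, which encodes calretinin and marks ventral mossy cells, at 65.2 ± 9.32 and 616 ± 94.6 CPM. The 8 mossy cell markers summed to 606 to 689 CPM dorsally and 1205 to 1438 CPM ventrally, with 2 called in each direction. Calb2, already known as a ventral marker, supplied most of that gap. The sum and its p below therefore do not measure mossy cell content. Markers of other cells moved with the groups as well. The summed level of 5 oligodendrocyte genes was 2104 to 2485 CPM dorsally and 725 to 1378 CPM ventrally, with 3 of the 5 called dorsal-enriched, and that of 4 granule cell genes was 276 to 338 and 119 to 268 CPM, with 1 of the 4 called (exact permutation p = 0.00794 for each of these 3 lists, 0.0291 adjusted over 11 lists, with 0.0655 or more for the other 8). The 8 interneuron genes summed to 3268 to 4363 CPM dorsally and 3951 to 5191 CPM ventrally (exact permutation p = 0.0635), with 3 of the 8 called ventral-enriched (Sst, Pvalb and Lhx6, each without overlap), and the most abundant of them, Gad2, was at 2853 ± 453 and 3174 ± 407 CPM. The 5 astrocyte genes summed to 170.5 to 230.2 and 61.8 to 184.9 CPM, with 3 called dorsal-enriched and 1 ventral-enriched, and none of the 55 markers was at 0 in every library. The part of these differences in the results below was not tested, and in such tissue samples fewer cells of a type and less RNA per cell cannot be told apart.

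Across the 10 libraries, the summed level of ribosome-bound mRNA was highest for the srGAPs and lowest for the ligands when CPM were divided by exonic length. The place of the srGAPs came from Srgap3, which made up 86.4% of their sum. Srgap3, which restrains Rac and shapes dendritic spines, had a level of 56.8 CPM per kb (48.0 to 66.6 over the 10 libraries), higher than 94.8% of the tested protein-coding genes, and its range lay above that of every other gene of the family. Robo2 followed at 8.53 (6.23 to 10.9), then Srgap2 at 5.88 (4.76 to 7.94), Robo1 at 4.20 (2.95 to 5.19), Srgap1 at 3.03 (1.66 to 4.25), Slit1 at 2.84 (1.44 to 3.72) and Slit3 at 2.42 CPM per kb (1.09 to 3.02). Each of these neighbours in the order, from Robo2 to Slit3, overlapped the next over the libraries. Slit2 was lower, at 0.644 CPM per kb (0.314 to 0.936), without overlap with Slit3, and Robo3 was last at 0.089 CPM per kb (0 to 0.332). The place of Slit2 depended on the length used, because its annotated exons span 25433 bases but its longest coding sequence 4626. Per kb of coding length, Slit1, Slit2 and Slit3 were nearly level at 3.66, 3.54 and 3.22 CPM, and the order of the other genes stayed as above.

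Summed by role and scaled to exonic length, the ligands stood at 5.90 ± 1.39 CPM per kb dorsally and 5.92 ± 0.96 ventrally (SD, n = 5). The receptors stood at 14.3 ± 1.28 and 11.3 ± 1.12 CPM per kb. With this length the lowest dorsal library (12.5) was above the highest ventral one (12.4) by a narrow margin. The srGAPs stood at 67.4 ± 5.43 and 64.0 ± 4.60 CPM per kb and overlapped. Receptor level divided by ligand level was 2.62 ± 1.03 in dorsal and 1.93 ± 0.27 in ventral libraries, with overlapping ranges (1.88 to 4.42 and 1.62 to 2.24). Per kb of coding length these mean ratios were 5.69 and 3.78, again with overlapping ranges. On coding length the receptor sums of the groups overlapped too, so their separation depended on the length used. The ligand sums also overlapped on coding length, where Slit2 weighs more, but their mean was then higher in ventral libraries. On exonic length the highest ratio, 4.42 in dorsal replicate 1, belonged to the library with the lowest ligand sum (3.43 CPM per kb). These sums are descriptions and were not tested.

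**Figure D1:**
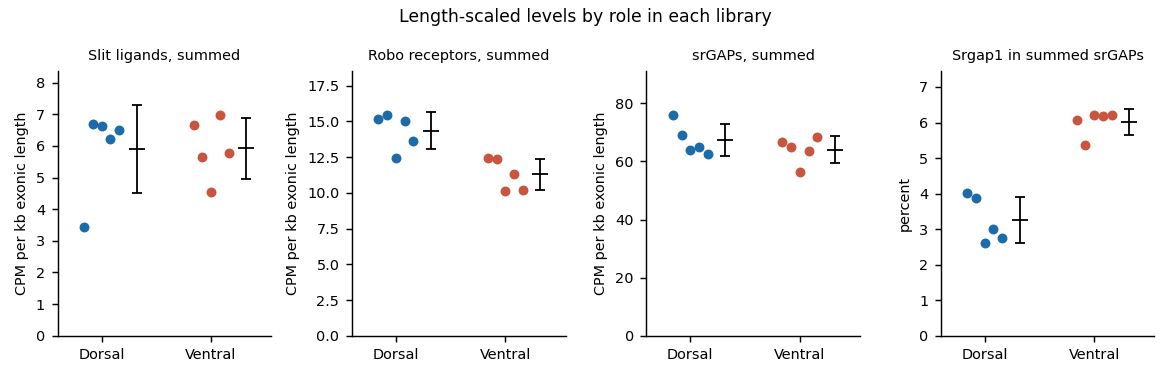
Summed levels of the Slit ligands, Robo receptors and srGAPs (CPM per kb of exonic length) and the percentage of the summed srGAP level contributed by Srgap1, with 1 point per library and the group mean ± SD (n = 5 dorsal, 5 ventral) in black. The ligand sums overlap around 5.90 and 5.92, the receptor sums are 12.5 to 15.5 in dorsal and 10.2 to 12.4 in ventral libraries, and the Srgap1 share is 2.60 to 4.01% against 5.35 to 6.22%. Per kb of coding length, not drawn, the receptor sums overlap and the ligand mean is higher in ventral libraries.

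In the test of dorsal against ventral libraries, Srgap1 was called ventral-enriched and no ligand passed, while the rare Robo3 met the rule as dorsal-enriched. A gene was called when the adjusted p from edgeR's quasi-likelihood test, corrected over all genes tested, was below 0.05 and the log2 ratio of mean CPM + 1 exceeded 0.58 in size. All 9 genes passed the filter on low values (above 1 CPM in at least 2 libraries), Robo3 through dorsal libraries alone. Admission by 1 group's high values favours a difference in advance, so the Robo3 call is given as a description. Of the 9, 1 was called dorsal-enriched against 15.7% of the 16806 genes tested, and 1 ventral-enriched against 9.85%. The adjusted p alone was below 0.05 for 3 of the 9, against 33.6% of all genes. With Robo3 among them, these counts are near or below the shares over all genes and are no result about the family. The median log2 fold change (dorsal over ventral) of the 9 genes was 0.21, and that of all tested genes was -0.0044. Dorsal libraries were higher for 6 genes and ventral libraries for 3.

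**Figure D2:**
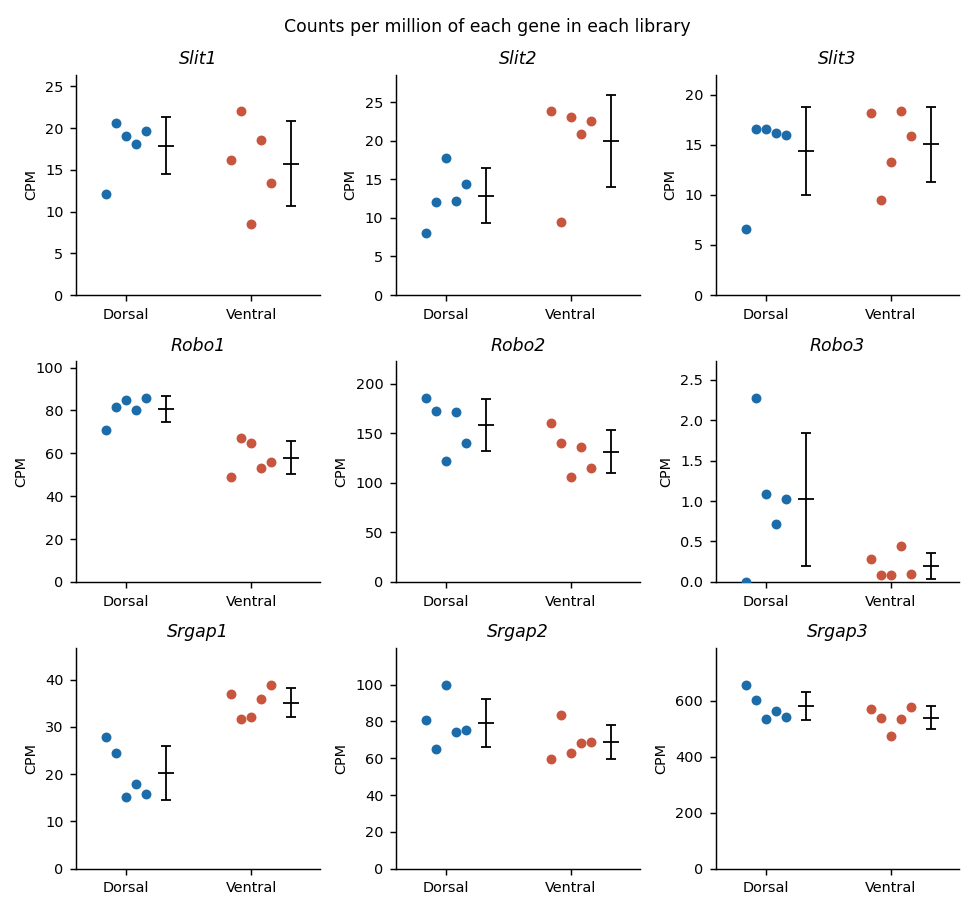
CPM of the 9 genes in each library, 1 point per library, with the group mean ± SD (n = 5 dorsal, 5 ventral) in black and axes starting at 0. Robo1 lies higher in all 5 dorsal libraries and Srgap1 in all 5 ventral libraries, while the other 7 genes overlap, Robo3 because dorsal replicate 1 has 0 counts.

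Slit1 (ENSMUSG00000025020, chr19:41600257-41743665, - strand), a ligand made mainly in the nervous system, was at 12.04, 20.7, 19.0, 18.1 and 19.6 CPM in dorsal replicates 1 to 5 and at 16.2, 22.0, 8.53, 18.6 and 13.4 CPM in ventral replicates 1 to 5. The ventral libraries covered the whole dorsal range, and the log2 fold change of 0.21 (SE 0.22, edgeR adjusted p = 0.493) was within the spread.

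Slit2 (ENSMUSG00000031558, chr5:47983138-48307733, + strand), a ligand of Robo1 and Robo2, was at 8.0, 12.02, 17.7, 12.1 and 14.4 CPM in dorsal libraries. In ventral libraries it was at 23.8, 9.42, 23.1, 20.8 and 22.5 CPM. Ventral replicates 1, 3, 4 and 5 were above all dorsal libraries, while ventral replicate 2 lay inside the dorsal range. The fitted log2 fold change was -0.64 (SE 0.24), or 1.56-fold higher in ventral libraries, and edgeR's adjusted p of 0.0536 missed the threshold. It passed without ventral replicate 2 (log2 fold change -0.79, edgeR adjusted p = 0.00764) and without dorsal replicate 3 (-0.78, adjusted p = 0.0364). On all 10 libraries it also passed without the filter (-0.65, adjusted p = 0.049) and once gene length and GC content were corrected for (-0.91, adjusted p = 0.00814). That correction moved the median of all genes to -0.17, relative to which Slit2 was at -0.74. With the share of read pairs on no gene as a covariate Slit2 was at -1.26 (SE 0.49, edgeR adjusted p = 0.128). The side of the threshold on which Slit2 fell thus turned on the library and the setting.

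Slit3 (ENSMUSG00000056427, chr11:35121224-35708507, + strand), a ligand also made in many tissues outside the brain, was at 6.59, 16.6, 16.6, 16.2 and 15.95 CPM dorsally and at 18.1, 9.51, 13.3, 18.4 and 15.9 CPM ventrally. Dorsal replicate 1 was far below the other 4 dorsal libraries, which were nearly equal. The log2 fold change was -0.066 (SE 0.23, edgeR adjusted p = 0.854) with a 95% interval of -0.57 to 0.44, and its sign turned without dorsal replicate 1 (0.088), ventral replicate 1 (0.0060) or ventral replicate 4 (0.012). Of the 3 ligands, none was called by the main edgeR fit or by DESeq2, and 1, Slit2, had an unadjusted p under 0.05 in the main fit. Within the ligand level summed on exonic length, Slit1 made up 52.0% in dorsal and 44.5% in ventral libraries. Slit3 made up 39.4% and 41.9%, and Slit2 8.61% and 13.5%, each with overlapping ranges. The low Slit2 share depended on the length used. Per kb of coding length Slit1, Slit2 and Slit3 were nearly level over the 10 libraries, at 3.66, 3.54 and 3.22 CPM.

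Among the receptors, Robo1 (ENSMUSG00000022883, chr16:72308306-73046095, + strand), the broadly expressed receptor that mediates Slit repulsion, was at 70.7, 81.7, 84.9, 80.2 and 85.7 CPM in dorsal libraries. In ventral libraries it was at 48.7, 67.1, 64.7, 53.2 and 56.1 CPM. Every dorsal library was above every ventral one, which held for 9.81% of all tested genes. The log2 fold change of 0.49 (SE 0.12, 95% interval 0.24 to 0.74), a 1.40-fold difference, had an edgeR adjusted p of 0.0069 but did not reach the fold threshold. Robo1 was therefore higher in dorsal libraries without being called. No single library removed this: the log2 fold change was 0.43 to 0.54 with each left out, with adjusted p of 0.00409 to 0.0224. Once gene length and GC content were corrected for, Robo1 stood 0.28 higher dorsally on the log2 scale (edgeR adjusted p = 0.0974), or 0.46 above the median of all genes in that fit, and with the share of read pairs on no gene as a covariate it was 0.23 (SE 0.22, edgeR adjusted p = 0.571).

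Robo2 (ENSMUSG00000052516, chr16:73891839-74411825, - strand), the receptor with the highest level here and a partner of Robo1 in Slit repulsion, was at 185, 173, 122, 171 and 140 CPM dorsally and at 161, 140, 106, 136 and 115 CPM ventrally. The groups overlapped, and the log2 fold change was 0.26 (SE 0.14, edgeR adjusted p = 0.161, 95% interval -0.037 to 0.57). With the share of read pairs on no gene as a covariate Robo2 was at 0.84 (SE 0.22, edgeR adjusted p = 0.0367), the single fit with an adjusted p below 0.05, and the correction for length and GC turned its sign (-0.080, adjusted p = 0.689). Robo2 made up 64.6 ± 5.61% of the summed receptor level in dorsal and 68.3 ± 5.46% in ventral libraries, and Robo1 34.4 ± 5.26% and 31.4 ± 5.59%.

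Robo3 (ENSMUSG00000032128, chr9:37415669-37433246, - strand), a divergent receptor best known from commissural axons crossing the midline, was rare in all libraries. It had 0, 35, 16, 12 and 13 counts in dorsal replicates 1 to 5 (0, 2.27, 1.09, 0.721 and 1.02 CPM) and 5, 1, 1, 7 and 2 counts in ventral replicates (0.277, 0.088, 0.0844, 0.443 and 0.0944 CPM). Dorsal replicates 2 to 5 were above all ventral libraries, while the 0 counts of dorsal replicate 1, which allow up to 0.282 CPM, were at the level of the ventral ones. The log2 fold change was 2.36 (SE 0.72, edgeR adjusted p = 0.0166) with a 95% interval of 0.87 to 3.85, so its size was poorly determined. Robo3 passed the filter through dorsal libraries alone. Its p-values are therefore given as descriptions and not as support for a difference. With no filter on low values the log2 fold change was 2.35 (edgeR adjusted p = 0.0141). Without dorsal replicate 2, the library with the most counts, the log2 fold change was 1.83 and the call was lost (adjusted p = 0.0509), as it was without ventral replicate 5 (2.11, adjusted p = 0.0566). With DESeq2 it was 2.38 (adjusted p = 0.0563), likewise not called. With the share of read pairs on no gene as a covariate it was 0.90 (SE 1.30, edgeR adjusted p = 0.718). Robo3 was at most 2.15% of the summed receptor level in any library, so that sum was almost wholly Robo1 and Robo2. Robo4, the endothelial member of the family, is annotated next to Robo3 on the opposite strand without shared exons. It was as rare, at 0.783 ± 0.47 CPM dorsally and 0.388 ± 0.22 CPM ventrally (log2 fold change 0.98, SE 0.56, edgeR adjusted p = 0.185). Robo4 also passed the filter through dorsal libraries alone, so its fold change and p are likewise descriptions.

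Srgap1 (ENSMUSG00000020121, chr10:121780991-122047315, - strand), which binds the Robo1 cytoplasmic domain and lowers active Cdc42, was the srGAP that differed. It was at 27.8, 24.6, 15.2, 17.8 and 15.8 CPM dorsally and at 37.0, 31.7, 32.1, 35.9 and 38.9 CPM ventrally. Every ventral library was above every dorsal one, as for 8.36% of all tested genes, although dorsal replicates 1 and 2 came close to ventral replicates 2 and 3. The log2 fold change was -0.82 (SE 0.17, edgeR adjusted p = 0.0033), or 1.77-fold higher in ventral libraries with a 95% interval of -1.19 to -0.45 on the log2 scale. It was called with each of the 10 libraries left out, at -0.94 to -0.72. With the share of read pairs on no gene as a covariate it was -0.38 (SE 0.34, edgeR adjusted p = 0.526), in a fit that called 834 genes dorsal-enriched and 339 ventral-enriched in all, against 2636 and 1655 without the covariate.

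Srgap2 (ENSMUSG00000026425, chr1:131285251-131527352, - strand), which promotes the maturation of dendritic spines and limits their density, was at 80.8, 65.1, 99.8, 74.2 and 75.2 CPM dorsally and at 59.8, 83.6, 63.0, 68.1 and 69.0 CPM ventrally. The ranges overlapped (log2 fold change 0.21, SE 0.13, edgeR adjusted p = 0.254). Srgap3 (ENSMUSG00000030257, chr6:112717971-112947266, - strand) was at 656, 604, 536, 563 and 541 CPM dorsally and at 570, 539, 473, 534 and 579 CPM ventrally. Its log2 fold change of 0.10 (SE 0.090, edgeR adjusted p = 0.389) had a 95% interval of -0.088 to 0.30, so a dorsal excess above 0.30 or a ventral one above 0.088 on the log2 scale lay outside the interval. Within the summed srGAP level, Srgap3 made up 87.3 ± 1.38% and 85.4 ± 0.92% in dorsal and ventral libraries, Srgap2 9.40 ± 1.85% and 8.57 ± 1.16%, and Srgap1 3.25 ± 0.65% and 6.01 ± 0.37%. The Srgap1 share was 2.60 to 4.01% in dorsal and 5.35 to 6.22% in ventral libraries, without overlap.

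**Figure D3:**
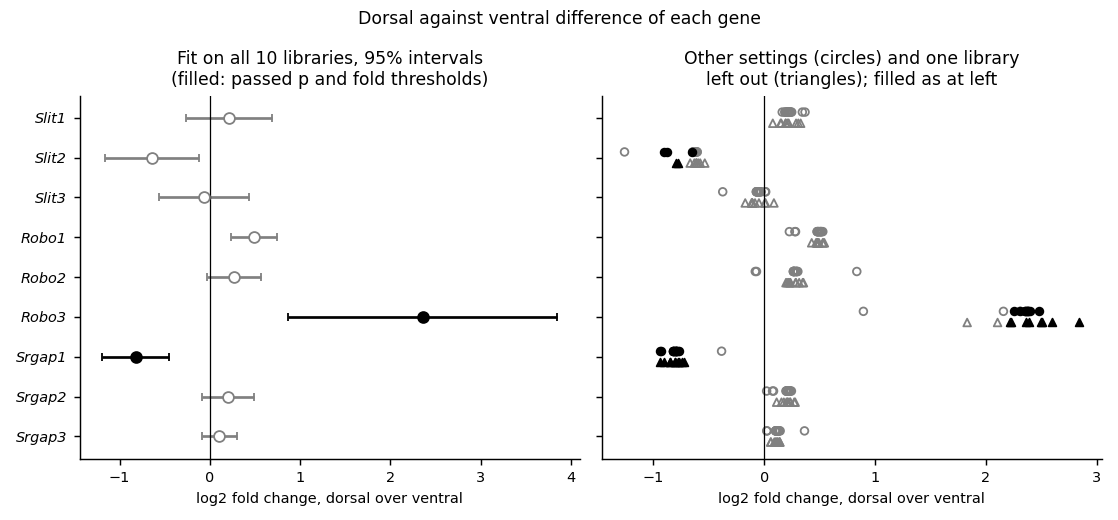
Log2 fold change (dorsal over ventral) of each gene. The left panel gives the edgeR fit on all 10 libraries with 95% intervals and the right panel the fits with other settings (circles) and with 1 library left out (triangles), filled where the gene was called. Robo3 and Srgap1 are filled at the left, at 2.36 and -0.82. At the right Srgap1 is open in 1 of 25 fits, Robo3 in 6 of 24, and Slit2 is filled in 5 of 25. Robo3 passed the filter through dorsal libraries alone, so its filled points are descriptions.

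For the genes called, the sequence around the annotated transcription start is shown as a description. No measurement here was made at the promoters themselves. RefSeq (GRCm38.p6) start windows of 300 bases were available for 8 of the 9 genes. Capitals mark CG dinucleotides, the only motif counted, which reads the same on both strands. The Srgap1 window held 37 of them, a number that 5.6% of all 32851 windows reached, and was 73.3% G and C. The Robo3 window held 17, reached by 31.4% of all windows, and was 63.3% G and C, and the median over all windows was 7. Those of the uncalled genes held 5 to 41.
Srgap1, chr10:122047266-122047565 (- strand): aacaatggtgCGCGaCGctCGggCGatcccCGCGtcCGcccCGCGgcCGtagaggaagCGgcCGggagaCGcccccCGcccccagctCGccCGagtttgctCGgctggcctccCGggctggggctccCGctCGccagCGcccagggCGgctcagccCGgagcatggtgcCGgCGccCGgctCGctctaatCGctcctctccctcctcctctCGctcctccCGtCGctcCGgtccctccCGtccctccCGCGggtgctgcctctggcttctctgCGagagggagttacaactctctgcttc
Robo3, chr9:37433126-37433425 (- strand): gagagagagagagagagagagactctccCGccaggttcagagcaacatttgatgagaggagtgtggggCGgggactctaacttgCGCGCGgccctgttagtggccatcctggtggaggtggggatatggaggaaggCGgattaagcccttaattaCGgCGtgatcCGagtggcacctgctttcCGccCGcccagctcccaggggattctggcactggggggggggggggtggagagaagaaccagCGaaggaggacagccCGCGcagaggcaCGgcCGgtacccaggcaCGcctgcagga

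The 2 called genes were also compared with all other protein-coding genes for the shape of their profile over the 10 libraries, as the root mean square difference of centred log2(CPM + 1) values among 10067 genes with a mean of at least 5 CPM. Nearest to Srgap1 were Asap1 (0.130), Ezh1 (0.133) and Polr2b (0.136), against a spread of 0.471 in Srgap1 itself. Nearest to Robo3 were Plxnb1 (0.160), Zfp777 (0.167) and Ankrd10 (0.179), against 0.525. The values describe likeness over the same libraries that gave the calls and carry no test.

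Of the genes annotated inside or across the 9, 26 in all over 7 of the genes, 9 had 0 counts in every library and 1 passed the filter. That gene, Gm49660, lies inside Robo2 on the same strand (chr16:74062050-74065853) and outside the exons of the coding transcripts of Robo2. It had 1, 3, 112, 68 and 73 counts in dorsal replicates 1 to 5 and 1 to 5 counts in ventral libraries, so it was high in dorsal replicates 3, 4 and 5 alone. It passed the filter through those 3 libraries, so no test of it is given. Shared exonic sequence was limited to Srgap1, with 1.43% shared with Gm48804 on the same strand, and Srgap3, with 1.52% shared with Gm44081 on the opposite strand, and at most 0.91 CPM were counted on either.

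Around these 9 genes, 46 further genes of the pathway were examined by role, of which 45 were tested and the heparan sulfate proteoglycan gene Sdc1 was below the filter. Of the 45, 4 were called dorsal-enriched and 2 ventral-enriched, against 15.7% and 9.85% of all genes. An edgeR adjusted p below 0.05 was found for 12, against 33.6% of all genes, 8 of the 12 with higher dorsal values. These counts are below the shares over all genes and are no result about the pathway. The median log2 fold change of the 45 genes was 0.16.

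Of 11 tested genes for Robo4, other ligands and co-receptors, 1 was called dorsal-enriched, against 15.7% of all genes. The 11 include Nell2, a ligand of Robo3, the netrin receptor gene Dcc and glypican and syndecan genes. The gene called was Sdc4, a heparan sulfate proteoglycan, at 22.7, 28.6, 20.5, 24.4 and 20.8 CPM dorsally and 14.1, 6.16, 10.2, 13.9 and 12.5 CPM ventrally (log2 fold change 1.0, SE 0.20, edgeR adjusted p = 0.00223). The groups did not overlap. With the share of read pairs on no gene as a covariate the log2 fold change was larger, but so was its SE (1.18, SE 0.40). The call was lost in that fit (edgeR adjusted p = 0.0829). Nell2 was at 122 ± 14.8 and 103 ± 13.3 CPM and was not called (log2 fold change 0.24, SE 0.12, edgeR adjusted p = 0.14).

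Heparan sulfate, the sugar chain that holds Slit and Robo together, is built by the products of the next 7 genes. Of these, 4 had an edgeR adjusted p below 0.05, against 33.6% of all genes. In each direction 1 was called, against 15.7% of all genes dorsal-enriched and 9.85% ventral-enriched. Hs2st1, a sulfotransferase, was higher in every dorsal library, at 105 to 129 CPM against 63.3 to 84.1 CPM (log2 fold change 0.71, SE 0.11, edgeR adjusted p = 0.000469), and was called. The call was lost only once gene length and GC content were corrected for (0.54, below the fold threshold), where the median of all genes was -0.17. Ext2, a subunit of the polymerase, was called ventral-enriched (log2 fold change -1.93, SE 0.55, edgeR adjusted p = 0.0165), yet its ventral values were 9.10, 8.45, 80.1, 37.3 and 70.1 CPM against 6.68 to 13.9 CPM in dorsal libraries. Ventral replicates 1 and 2 were thus within the dorsal range, and the call was lost without ventral replicate 5 and with the covariate (-3.46, adjusted p = 0.0567). Its partner Ext1 (log2 fold change 0.54, adjusted p = 0.0264) and Extl3 (0.39, adjusted p = 0.0303) were higher in dorsal libraries but below the fold threshold in edgeR.

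None of the 5 genes that route or degrade Robo protein (Usp33, Ndfip1, Ndfip2, Nedd4 and Itch) was called by the main edgeR fit or by DESeq2. In the main fit 1, Ndfip1, had an unadjusted p under 0.05. Of the 22 cytoplasmic effectors, 2 were called dorsal-enriched and 1 ventral-enriched, against 15.7% and 9.85% of all genes. Nck1, an adaptor that links Robo to Pak kinases, was at 29.4, 19.5, 34.3, 28.0 and 26.6 CPM dorsally and 15.7, 19.7, 8.61, 12.5 and 11.7 CPM ventrally (log2 fold change 1.02, SE 0.21, edgeR adjusted p = 0.00287). Only dorsal replicate 2 and ventral replicate 2 crossed. Its call was lost once gene length and GC content were corrected for (0.50, edgeR adjusted p = 0.105), where the median of all genes was -0.17. The Nck1 call was also lost with the share of read pairs on no gene as a covariate (1.14, edgeR adjusted p = 0.112). Myo9b, a myosin with a GTPase-activating domain that Robo1 inhibits, was at 11.05 ± 3.84 and 5.33 ± 2.58 CPM (log2 fold change 1.15, SE 0.33, edgeR adjusted p = 0.0172), but that covariate ended the Myo9b call (0.26, SE 0.60, edgeR adjusted p = 0.836). Ctnnb1, which encodes β-catenin, was at 62.5 ± 16.3 CPM dorsally and 95.8 ± 16.9 CPM ventrally (log2 fold change -0.61, SE 0.17, edgeR adjusted p = 0.0143) and lost its call in 5 of the 10 fits with 1 library left out (without dorsal replicate 1, 3, 4 or 5 or ventral replicate 3). The GTPase genes on which srGAPs act, Rac1, Cdc42 and Rhoa, had log2 fold changes of -0.26, -0.24 and -0.46 and were not called (edgeR adjusted p = 0.0607, 0.0953 and 0.0235, the last below the threshold for p but not for fold).

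**Figure D4:**
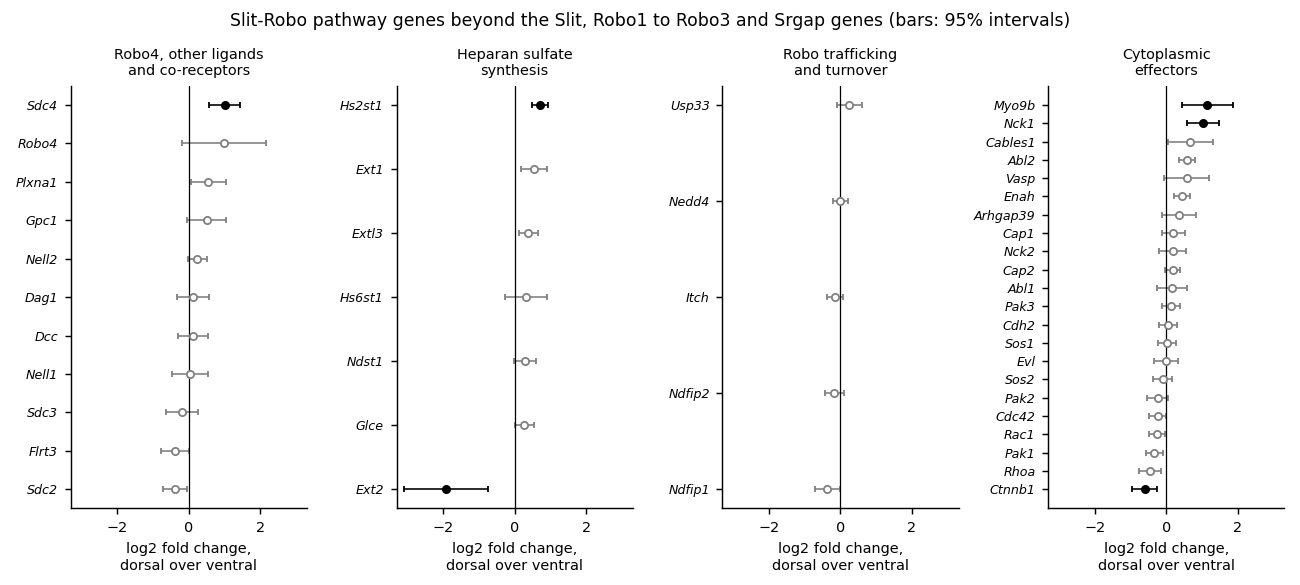
Log2 fold change (dorsal over ventral) with 95% intervals of the 45 tested pathway genes, in 4 panels by role, filled where the gene was called. The filled points are Sdc4, Hs2st1, Myo9b and Nck1 on the dorsal side (1.0, 0.71, 1.15 and 1.02) and Ext2 and Ctnnb1 on the ventral side (-1.93 and -0.61).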

How the data were processed

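Per the labels, RNA from each TRAP pool (500 pg) was amplified with the Ovation V2 kit, and TruSeq libraries were sequenced as 50 bp paired ends. The authors aligned reads to GRCm38 with STAR 2.5.2b and counted them per gene with HTSeq 0.7.2 (submitters' processing notes). The deposited counts are raw and not normalized, and the annotation release and the strand setting are not given in the sources used here; both kits lose strand.

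Symbols, lengths and 3′ UTRs came from GENCODE M21 (GRCm38). The 9 genes and all lists were chosen with earlier results of these data known. Genes above 1 CPM in at least 2 libraries (16806) were tested with edgeR 4.0.16 (TMM, group as the only term, quasi-likelihood F test without the older dispersion mode, Benjamini-Hochberg correction), in R 4.3.3. Calls needed an adjusted p below 0.05 and a log2 ratio of mean CPM + 1 above 0.58 in size. CPM are TMM-scaled. The fit was tested on simulated data. Single values of the libraries were compared by exact permutation tests. DESeq2 1.42.0, other scalings and filters, a GC and length correction and leaving out each library were alternatives. Replicates of a group differed by more than counting noise (chi-square per degree of freedom 4.49 to 46.2).

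Genes beyond the 9 were named by rule: overlapping annotated genes, pathway genes called (at most 8 per direction) and Robo4, Drd2, Calb2 and the most abundant marker of a list, and the 3 nearest profiles per called gene. Sst, Pvalb, Lhx6, Nell2, Dcc, Ext1, Extl3, Usp33, Ndfip1, Ndfip2, Nedd4, Itch, Rac1, Cdc42, Rhoa and Sdc1 were named after their values were seen. The sequences are those of RefSeq and GENCODE. Floors cover counting error only. Read pairs on no gene (11.6 to 33.9% per library) stayed out of library sizes.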

Additional observations from a re-analysis of the deposited data

Results flagged for a closer look

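In 18 groups of 5 libraries (9 genes in dorsal and ventral libraries), 2 held a library set apart from the other 4 by Dixon's criterion, and chance flags about 1 in 20 such groups. Slit2 in ventral replicate 2 was at 9.42 CPM, where the other ventral libraries were at 20.8 to 23.8 CPM. Slit3 in dorsal replicate 1 was at 6.59 CPM, where the other dorsal libraries were at 15.95 to 16.6 CPM.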

How the results depend on the processing

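Srgap1 stayed ventral-enriched in 24 of 25 alternatives, and Robo1 kept its direction in all 25 without being called. The number of the 9 genes called dorsal-enriched, 1 in the fit on all libraries, was 0 with a filter of 1 CPM in 5 libraries (which drops Robo3), with DESeq2's test, under a replicate block, with the share of read pairs on no gene as a covariate and with edgeR's older dispersion mode (added after seeing the data), with 1 to 3 genes at an unadjusted p under 0.05 in these fits. The number called ventral-enriched was 2 without a filter and under the GC and length correction with or without the block, where Slit2 joined Srgap1, and 0 with the covariate. Leaving out 1 library gave 0 to 1 and 1 to 2. The correction turned Slit3 to 0.0095 (0.014 with the block) and Robo2 to -0.080 (-0.069), but moved the median of all genes to -0.17, relative to which Robo2 was at 0.092 and Robo1 at 0.46. Slit3 also turned in 3 of the 10 fits with 1 library left out, over which it was -0.17 to 0.088.

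Over all genes, 2636 dorsal and 1655 ventral calls (60.9% dorsal) became 834 and 339 with the covariate (71.1%), 3011 ventral under the correction (39.8% dorsal) and 3051 with the block as well (40.7%), and 1665 dorsal with protein-coding genes alone. Pathway genes called dorsal-enriched fell from 4 to 1 with the covariate. The covariate differs between the groups without overlap, so that fit can hardly separate its part from that of the group. Those called ventral-enriched, 2 before, were 1 with upper-quartile factors or the covariate, 9 under the correction with or without the block, and 1 to 2 with 1 library left out (1 without dorsal replicate 1, 3, 4 or 5 or ventral replicate 3 or 5). Per coding length the mean receptor to ligand level was 5.69 in dorsal and 3.78 in ventral libraries, with overlapping ranges. On that length the receptor sums overlapped, and the ligand sums overlapped with a higher mean in ventral libraries. The causes were not tested. Same-numbered dorsal and ventral libraries did not deviate together (correlations -0.032 to 0.069, 3 of 10 libraries nearest to their own number), so the numbers were not taken as pairs. Dorsal and ventral pools may still share mice under other numbers, which no fit here took into account. With the replicate block Robo3 was at 2.16 (edgeR adjusted p = 0.05003) and Srgap1 at -0.82 (0.00782). Depth limits Robo3, with at most 35 counts per library.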
